A study of Rattus norvegicus with 9 samples.

Results

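Voltage-gated sodium and calcium channels were described in the prefrontal cortex of 9 male Lewis rats by taking every gene whose only symbol in the array platform's annotation begins with Scn and a digit, or with Cacna, Cacnb or Cacng. The rule found 36 genes among 10411 with a symbol of their own, and they were covered by 47 probe sets, the groups of short oligonucleotides that read 1 transcript. The rule reads symbols and no measured value. The rats, of an inbred strain, received no treatment and form 1 group, with 1 Affymetrix array per rat. Behavioural testing had ended 12 days before the tissue was taken. The age of the rats is not given in the sources used here. Each rat carried 4 behavioural values without units, for startle (67.7 to 501), locomotion (536 to 1102), the plus maze (0 to 18.7) and sugar feeding (0.8 to 4.7), so the question is whether channel mRNA levels go with behaviour among animals that are nearly alike genetically.

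Voltage-gated sodium channels open within a fraction of a millisecond of depolarisation and carry the upstroke of the action potential. Their large alpha subunit forms the pore and the voltage sensors, and the small beta subunits, which resemble adhesion molecules, tune gating and placement. Voltage-gated calcium channels turn the same depolarisation into calcium entry, which drives transmitter release, dendritic signalling and gene expression. Their alpha1 subunit is the pore, the cytoplasmic beta and extracellular alpha2delta subunits bring it to the membrane, and several of the genes named Cacng encode auxiliary subunits of AMPA-type glutamate receptors (TARPs) instead. In cortical neurons sodium channels gather at the axon initial segment, while the calcium channels of the P/Q and N types sit at release sites.

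Of the 47 probe sets, 21 from 19 genes lay above a filter on low values and were tested. The filter left out the lowest 40% of all probe sets by mean over the 9 arrays, at a log2 value of 3.22. By subfamily, the tested genes were 4 of 9 sodium alpha, 2 of 3 sodium beta, 6 of 10 calcium alpha1, 2 of 2 alpha2delta, 3 of 4 calcium beta and 2 of 8 gamma genes. A log2 value depends on the probes as well as on the mRNA, so each probe set was compared only with itself across rats. In bulk tissue fewer cells of a type and less RNA per cell cannot be told apart. The p-values measure the spread between these 9 rats, which with 1 array each also holds technical differences between arrays.

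As to the tissue, 6 of 6 annotated neuron markers and 6 of 6 interneuron markers were above the filter, as were Slc17a7, Camk2a and Cux2 of the 4 annotated markers of excitatory cortical neurons. Of 5 skeletal muscle markers 2 were above it, Acta1 at a mean of 6.71 and Myh4 at 3.23. Of 3 annotated sensory ganglion markers 1 was above it, Trpv1 at a mean of 3.30. The arrays of rats 8 and 9 stand apart from the other 7 in many genes: for 26.9% of all 9520 probe sets tested, these arrays were both the highest or both the lowest. The labels name no batch. Results are therefore given over 9 rats and again without rats 8 and 9.

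Promoter sequence was at hand for 26 of the 36 genes, from RefSeq on the rat build GRCr8, as the 250 bases before a listed start. That start was the start of the annotated gene for 9 of the 26 and lay inside the annotated gene for 17. Shown are 3 members that the results turn on and whose listed start is the start of the annotated gene, in lower case with matches of the GC box (GGGCGG on either strand) in capitals. Scn3a and Scn4b had the largest upward and downward difference in rats 8 and 9, and Cacna1d was among the members with a low unadjusted p for startle. They lie at chr3:70666199-70666448 (minus strand), chr8:54343623-54343872 (plus strand) and chr16:5527550-5527799 (minus strand).
Scn3a: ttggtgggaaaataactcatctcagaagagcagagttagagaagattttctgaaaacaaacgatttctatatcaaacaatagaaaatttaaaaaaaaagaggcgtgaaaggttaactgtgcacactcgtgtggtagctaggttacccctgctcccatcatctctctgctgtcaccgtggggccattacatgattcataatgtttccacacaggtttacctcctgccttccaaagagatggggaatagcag
Scn4b: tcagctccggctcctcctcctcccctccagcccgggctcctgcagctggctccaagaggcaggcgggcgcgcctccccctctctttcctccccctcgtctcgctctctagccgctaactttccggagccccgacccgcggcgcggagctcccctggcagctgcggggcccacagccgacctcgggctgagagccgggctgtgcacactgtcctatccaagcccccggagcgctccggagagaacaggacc
Cacna1d: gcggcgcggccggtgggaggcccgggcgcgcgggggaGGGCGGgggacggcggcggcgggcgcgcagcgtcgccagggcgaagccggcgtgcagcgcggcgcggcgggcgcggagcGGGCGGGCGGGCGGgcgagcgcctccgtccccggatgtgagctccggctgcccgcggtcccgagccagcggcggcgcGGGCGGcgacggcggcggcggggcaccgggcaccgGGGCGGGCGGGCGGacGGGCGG

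The 3 stretches differed in base composition. The G and C share was 41.6% for Scn3a, 71.6% for Scn4b and 88.8% for Cacna1d, with 4, 21 and 56 CG dinucleotides. Cacna1d held 9 matches of the GC box and the other 2 held 0. Across the family the GC box was found in 12 of 26 promoters (46.2%), against 32.4% of all 27457 promoters of that length, and in 2 of the 9 whose listed start is that of the gene. CCAAT was found in 4 of 26 (15.4%, against 34.3% of all) and TATAAA in 2 of 26 (7.69%, against 13.1%), on either strand. A cAMP response element (TGACGTCA) was in 0 of 26 and in 1.70% of all promoters. RE1, the element bound by the neuronal repressor REST, was searched on both strands as a single run of letters. It was in 0 of 26 and in 0.00728% of all. A run this rare among all promoters could hardly be met in 26, so the 0 does not show that these genes lack RE1. The median G and C share was 71.8% for the 14 promoters of tested members, 54.6% for the 12 of members below the filter and 52.0% for all promoters. Among the 9 it was 62.0% for the 4 of tested members and 46.4% for the 5 below the filter. A match is a run of letters and not a measured binding site.

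The 26 probe sets below the filter had means of 1.66 to 2.96 and hardly varied. Their SD over the 9 rats had a median of 0.037 log2 units, against 0.048 for all 6346 probe sets below the filter. They also rose and fell together from array to array. Of the 26, 24 correlated at r over 0.8 across the 9 arrays with the mean of the non-member probe sets below the filter, and the median r was 0.947. That mean was highest in rat 3, at 2.51, and lowest in rat 2, at 2.39. The exceptions were Cacng8, with r = 0.025, and a second Cacna1c probe set, with r = 0.776. These values share the array and its background level, so they are given as a description with no p. The share past 0.8 among the other probe sets below the filter was not counted, so the 24 are not read as a trait of channels.

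**Figure D1:**
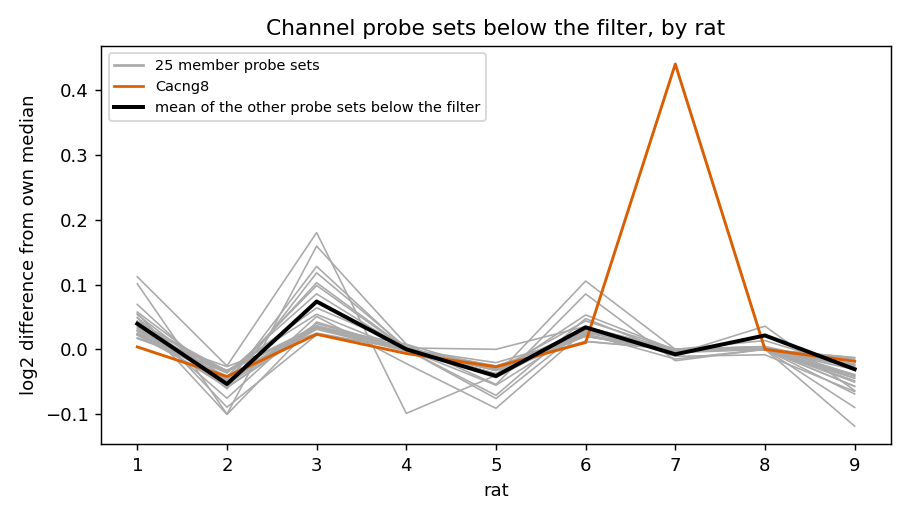
Log2 difference of each channel probe set below the filter from its own median (y axis) in rats 1 to 9 (x axis), with the mean of the other probe sets below the filter in black and Cacng8 in orange. Of the 26 lines, 24 follow the black one at r over 0.8, and Cacng8 leaves it in rat 7, at 2.06 against 1.57 to 1.64 in the other rats.

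Genes read only by such probe sets were Scn4a, the channel of skeletal muscle, Scn10a and Scn11a, channels of sensory neurons, Scn7a, a sodium-sensing relative, and Scn8a, a main channel of axon initial segments. Among the other subunits they were Scn2b, Cacna1e of the R type, Cacna1f of the retina, Cacna1i of the T type, Cacna1s of skeletal muscle, Cacnb4, Cacng1 and Cacng4 to Cacng8. Scn8a ran from 2.73 to 2.92 and Scn2b from 2.69 to 2.89, although both are known from brain neurons. A value this low does not show that the mRNA is absent. The neighbouring genes Cacng1, Cacng4 and Cacng5 were all below the filter, as were the neighbours Cacng6, Cacng7 and Cacng8.

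The 4 tested sodium alpha genes include 3 pore subunits of central neurons and Scn9a. Scn1a, the channel of many inhibitory interneurons, had a lowest, median and highest value of 9.52, 9.72 and 10.00. Scn2a, the channel of excitatory axons, had 8.56, 8.68, 8.06, 8.52, 8.92, 8.28, 8.64, 7.94 and 8.42 in rats 1 to 9, with rats 8 and 3 lowest. Scn3a, a form best known from the developing brain, had 5.44, 5.64 and 7.44. Its values were 6.21, 5.44, 5.64, 5.49, 5.50, 5.63, 6.59, 7.44 and 7.21 in rats 1 to 9, so rats 8 and 9 were highest, rat 7 next and the others at 6.21 or below. Its span of 2.00 log2 units, 4.01-fold, went with an SD of 0.78, which was the highest of the 21. Scn9a, known from sensory and autonomic neurons, had 3.59, 3.19, 3.73, 3.47, 3.32, 3.62, 3.39, 3.47 and 3.29, with rat 3 highest and rat 2 lowest. It correlated at r = 0.977 with the mean of the probe sets below the filter, so it tracked the array's low values although its mean of 3.45 passed the filter.

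Both tested sodium beta genes varied more than most. Scn3b, which is known to associate with neuronal alpha subunits, had 7.65, 8.82 and 9.20 as its lowest, median and highest value, and rat 7 was the lowest. Scn4b, the subunit linked to resurgent current, had 5.88, 6.64 and 7.31. In rats 1 to 9 its values were 6.64, 6.92, 6.48, 6.98, 7.31, 5.88, 6.69, 6.12 and 5.99, so rats 6, 9 and 8 were the lowest and rat 5 the highest. The SD was 0.47 for Scn3b and 0.48 for Scn4b.

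Among the calcium alpha1 genes, Cacna1b, the N-type pore, ran from 6.99 to 7.76 with a median of 7.53. Its values were 7.63, 7.53, 7.53, 7.56, 7.60, 7.76, 7.51, 6.99 and 7.53 in rats 1 to 9, so that rat 8 alone was low. Cacna1d, an L-type pore that opens at modest depolarisation, had 5.40, 5.50, 4.76, 5.50, 5.52, 5.50, 5.50, 5.50 and 5.59. Rat 3 alone was low and 7 of the other 8 lay between 5.50 and 5.59. Cacna1h, a T-type pore opened by small depolarisations, had 4.38, 4.60, 4.84, 5.37, 5.70, 5.66, 5.56, 5.36 and 4.97. These values spread evenly over a 2.49-fold range, with rat 1 lowest and rat 5 highest. Cacna1g, another T-type pore, had 4.57, 4.46, 4.52, 4.56, 4.61, 4.56, 4.56, 5.08 and 4.67, where rat 8 was high and the rest lay within 4.46 to 4.67. Cacna1c, the widely expressed L-type pore, had 4.04, 4.08, 4.05, 4.03, 4.01, 4.20, 4.03, 3.93 and 3.91, the least variable of the tested members with an SD of 0.083. Cacna1a, the P/Q-type pore, had 3.73, 3.66, 3.71, 3.44, 3.85, 3.72, 3.71, 3.84 and 3.68, and rat 4 was the lowest. For the P/Q, N and L types the second and further probe sets (3 for Cacna1a, 1 each for Cacna1b and Cacna1c, 2 for Cacna1d) were below the filter.

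Among the auxiliary calcium subunits, Cacna2d1, the target of gabapentin, had 7.87, 8.33, 7.59, 8.17, 8.16, 8.15, 6.75, 7.74 and 7.92, with rat 7 alone below 7.59. Cacna2d3, a relative, ran from 8.59 to 9.42 with a median of 9.23. Cacnb1 ran from 6.28 in rat 1 to 7.17 in rat 8 with a median of 6.75. Cacnb3, a neuronal partner of N-type channels, ran from 8.71 in rat 1 to 9.70 in rat 8 with a median of 9.20. Cacnb2 had tested probe sets at means of 6.31 and 3.79, whose values across the 9 rats correlated at r = -0.291. The lower of them had 3.98, 3.70, 3.90, 3.66, 3.71, 4.05, 3.65, 3.74 and 3.75, with rats 6, 1 and 3 highest, and correlated at r = 0.694 with the mean of the probe sets below the filter.

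The 2 tested gamma genes both encode TARPs, which carry AMPA receptors to synapses. Cacng2, stargazin, was read by 2 tested probe sets. The first had 7.59, 8.53, 8.59, 8.75, 8.77, 8.30, 8.17, 8.95 and 8.86 in rats 1 to 9, with rat 1 lowest. The second had 5.51, 4.73, 6.21, 5.41, 5.81, 5.65, 5.76, 6.46 and 6.29, with rat 2 lowest and an SD of 0.53. Rats 8 and 9 were the highest in both, but across the other 7 rats the 2 probe sets correlated at r = 0.039. Cacng3 ran from 8.82 to 9.44 with a median of 9.16.

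**Figure D2:**
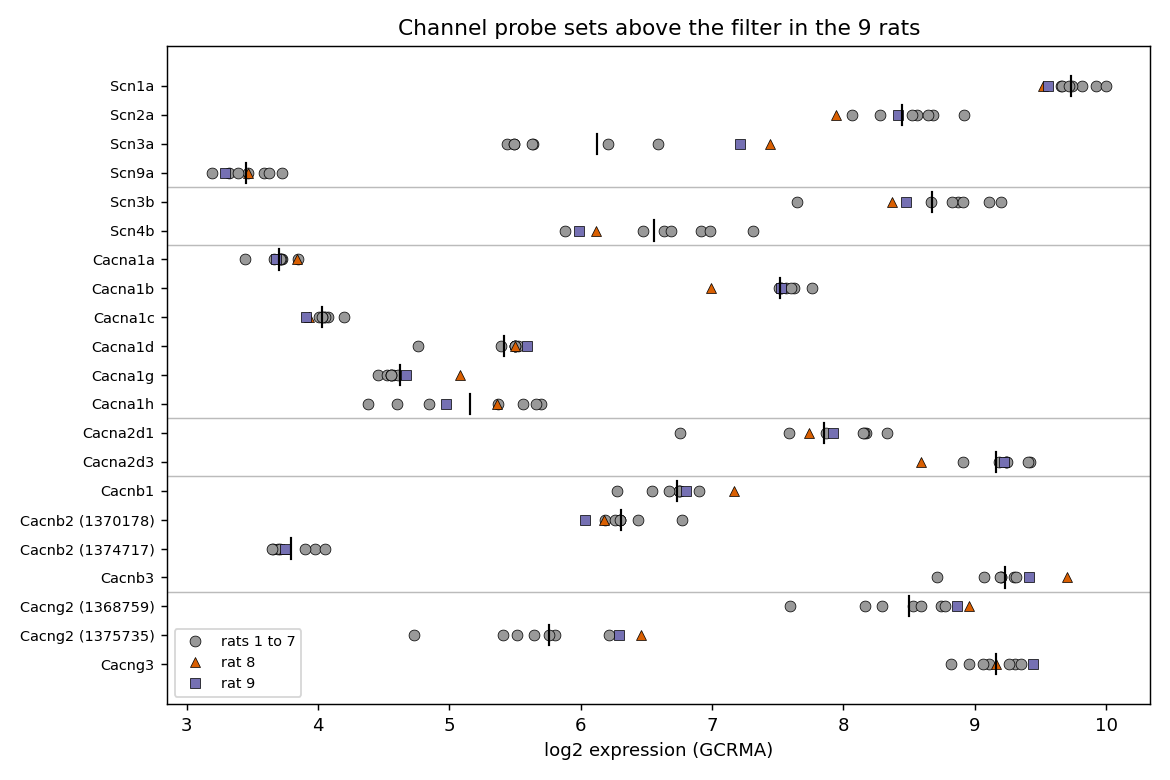
Log2 expression (x axis) of the 21 channel probe sets above the filter (y axis, by subfamily) in each rat, with circles for rats 1 to 7, a triangle for rat 8, a square for rat 9 and a bar at the mean of the 9. Scn3a is widest, from 5.44 to 7.44, and Cacna1c narrowest, from 3.91 to 4.20.

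Over the 9 rats the 21 tested probe sets had a median SD of 0.25 log2 units, against 0.19 for all 9520, and 8 of the 21 lay above the upper quartile of all, 0.28. Without rats 8 and 9 the largest SDs among the 21 were those of Cacna2d1 at 0.55, Cacna1h at 0.54 and Scn3b at 0.52. The second Cacng2 probe set and Scn4b followed at 0.45 each, and then Scn3a at 0.44.

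In rats 8 and 9 some members were higher and others lower than in the other 7, which is a description of a pair of arrays first noticed in these data. Scn3a averaged 1.54 log2 units higher, and the 2 Cacng2 probe sets 0.52 and 0.79 higher. Scn4b averaged 6.05 in these arrays against 6.70 in the other 7, Scn2a 8.18 against 8.52 and Cacna1b 7.26 against 7.59. For Cacna1b this was rat 8 alone, at 6.99, since rat 9 was at the median of 7.53, and for Scn2a rat 9, at 8.42, lay above rats 3 and 6. Both arrays lay above the other 7 for 5 of 21 probe sets (23.8%, against 9.33% of all tested), from Scn3a, Cacng2 (both), Cacnb3 and Cacna1g. Both lay below for 3 of 21 (14.3%, against 17.6% of all), Scn1a, Cacna1c and the first Cacnb2 probe set. The median size of the difference, regardless of direction, was 0.32 log2 units for the members and 0.17 for all tested.

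Scn1a, close to Scn3a on the same chromosome, averaged 9.54 in these arrays against 9.79 in the other 7. Control probe sets lie at the 3' and 5' ends of a transcript, and their difference widens as RNA is degraded. For hexokinase and beta-actin it was smaller in both of these arrays than in the other 7. For Gapdh both arrays lay within the range of the other 7. The 3' minus 5' difference for hexokinase was 2.02 in rat 8 and 1.14 in rat 9, against 2.41 to 2.91 in the other 7. For beta-actin it was 2.45 and 2.29 against 2.52 to 3.08, and for Gapdh 0.46 and 0.77 against 0.45 to 0.83. Their part in the result was not tested. The summed log2 level of the 6 neuron markers was 66.4 and 66.1 in rats 8 and 9 and 66.0 to 67.3 in the other 7. That of the 6 interneuron markers was 49.1 and 48.6 against 46.3 to 49.2, and none of these 12 markers was at 0. The interneuron markers went both ways: Gad1, Pvalb and Vip were below the other 7 in both arrays, as was Scn1a, and Gad2 was above, by 1.78 on average. Their part in the result was not tested. The summed level of the 2 muscle markers above the filter was 9.04 and 9.51 against 9.84 to 10.4. This came from Acta1, at 5.80 and 6.43 against 6.82 to 7.02. Myh4, with a mean of 3.23 close to the filter, had 3.25 and 3.08, within 3.02 to 3.47 of the other 7. The part of the muscle markers in the result was not tested.

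**Figure D3:**
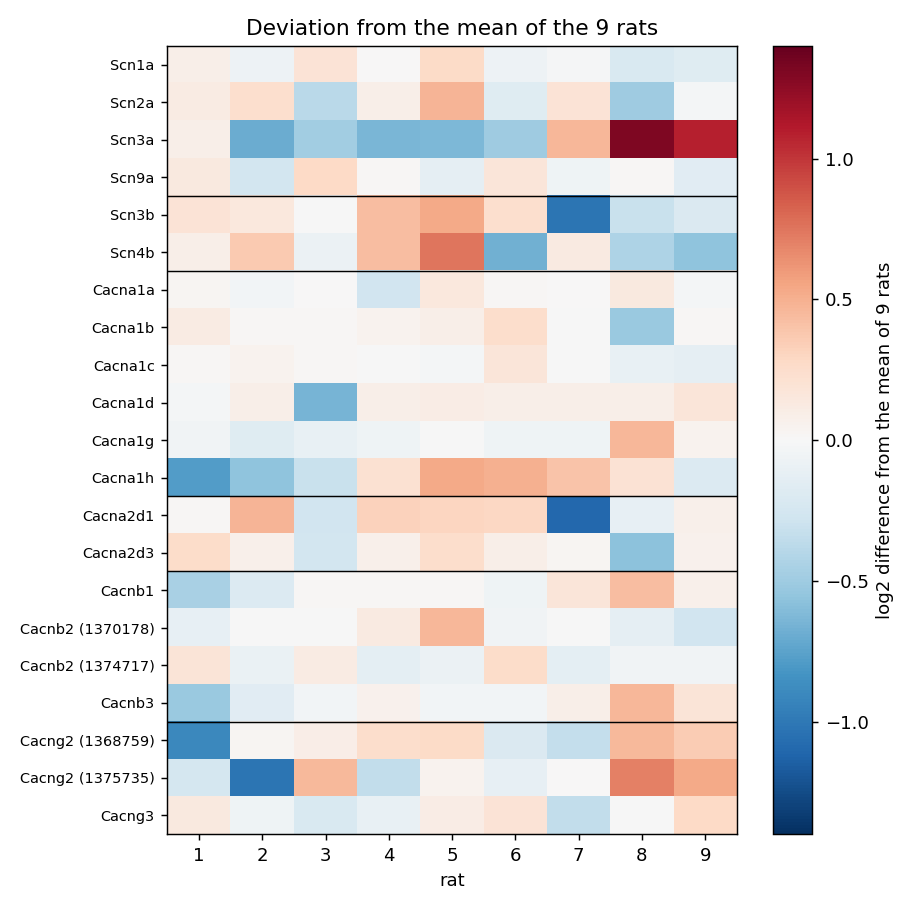
Log2 difference from the mean of the 9 rats (colour scale) for the 21 channel probe sets above the filter (rows, by subfamily) in each rat (columns). Scn3a is darkest in rat 8 and also high in rat 9, and Cacna2d1 and Scn3b are lowest in rat 7.

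Variation among the members was compared in the 7 rats other than 8 and 9, as a description with no p. Over the 210 pairs of tested probe sets the median r was 0.077, and 3.33% of pairs lay beyond 0.8 in either direction, against 6.01% of all pairs of probe sets. The highest r, 0.966, joined Cacnb1 and Cacnb3, beta subunits of the same channels. It was 0.971 over the 9 rats and 0.906 in the 6 rats left without rats 1, 8 and 9. Cacna2d1 and Scn3b had r = 0.929 in the 7 rats and 0.580 in the 6 rats without rat 7, in which both were lowest. Scn3a had r = -0.855 with Cacna2d1 and -0.813 with Scn3b, and -0.508 and -0.276 without rat 7. Other pairs beyond 0.8 were Cacna1c with Scn4b at -0.845, Scn2a with Scn9a at -0.843 and Cacna1b with Cacng3 at 0.823. Scn2a and Scn4b had r = 0.760, and 0.777 without rat 7. In the 7 rats the r with the mean of the probe sets below the filter was -0.870 for Scn2a, -0.674 for Scn4b and 0.984 for Scn9a. It was 0.263 for Cacna1c, 0.256 for Cacna1b and -0.0062 for Cacng3. The part of that mean in these pairs was not tested.

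Slopes on each behaviour were fitted with limma, in log2 units for 1 SD of the behaviour. After adjustment over the 9520 probe sets, 0 of 21 members were past 0.05 for each behaviour, against 0.0% of all tested. Adjusted exact permutation p-values of r, over all pairings of the 9 rats, likewise gave 0 of 21 each (0.0% of all tested). Without adjustment the limma test had 4 of 21 members past 0.05 for startle (19.0%, against 13.2% of all tested), 0 for locomotion (against 1.96%), 1 for the plus maze (4.76%, against 2.99%) and 0 for sugar feeding (against 1.40%). By direction, startle had 1 member with a positive slope (against 8.90% of all) and 3 with a negative one (against 4.34%), and the plus maze had 0 (against 2.45%) and 1 (against 0.546%). Locomotion had 0 in each direction (against 0.620% and 1.34%), as had sugar feeding (against 0.767% and 0.630%). The unadjusted exact permutation test had 4 members for startle (against 13.0% of all), 0 for locomotion (against 2.08%), 1 for the plus maze (against 3.28%) and 0 for sugar feeding (against 1.31%). Slopes of either size were positive for 9 of 21 members on startle (against 61.5% of all), 11 on locomotion (against 41.0%), 10 on the plus maze (against 58.2%) and 11 on sugar feeding (against 46.8%).

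**Figure D4:**
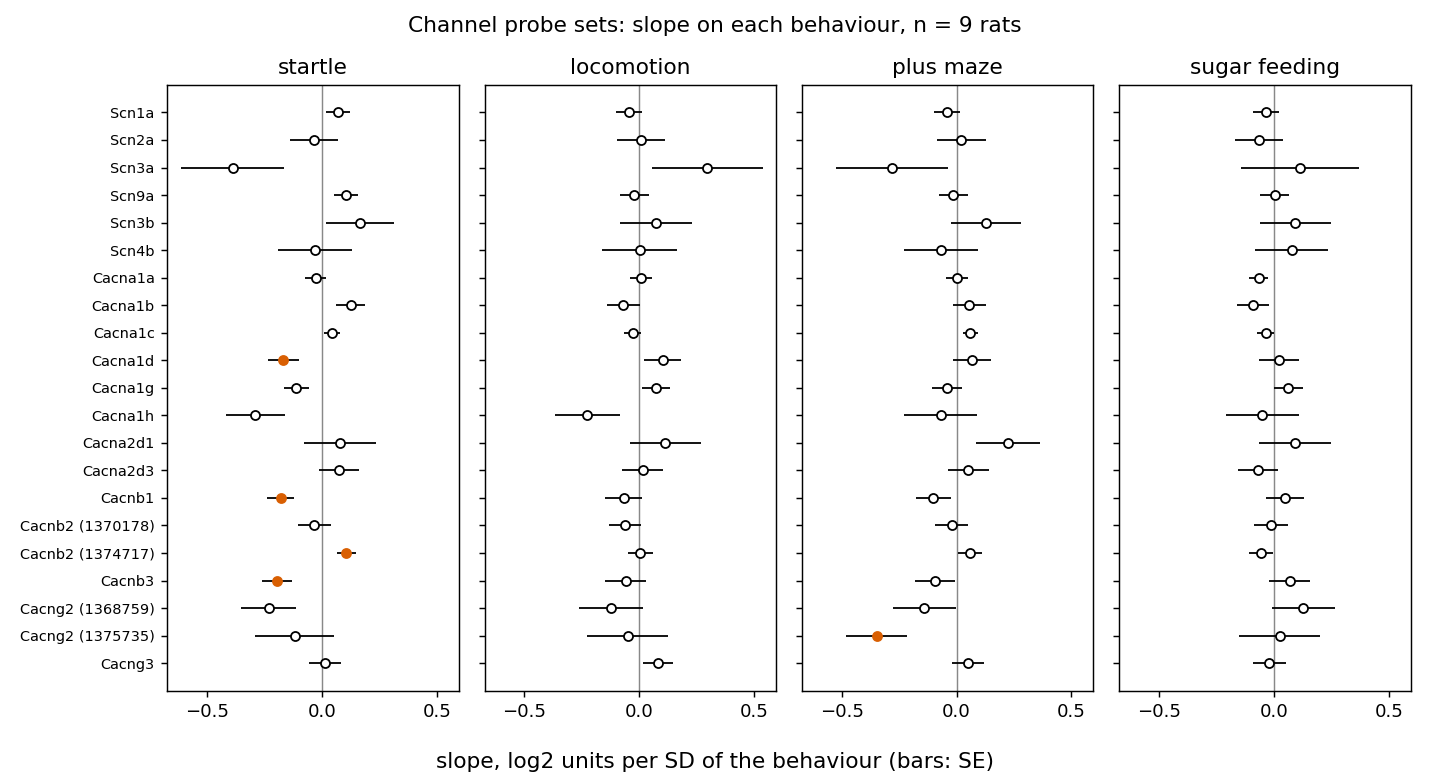
Slope in log2 units per SD of each behaviour (x axes, with bars for 1 SE from limma, n = 9 rats) for the 21 channel probe sets above the filter (y axis). Filled points have an unadjusted p under 0.05: Cacna1d, Cacnb1, Cacnb3 and a Cacnb2 probe set for startle, and a Cacng2 probe set for the plus maze.

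For startle, Cacnb3 and Cacnb1 had the smallest limma p of the 21. Cacnb3 had 8.71, 9.07, 9.20, 9.30, 9.20, 9.19, 9.31, 9.70 and 9.41 in rats 1 to 9, with rat 8, whose startle value was lowest, at the top and rat 1 at the bottom. The slope of Cacnb3 on startle was -0.20 ± 0.064 (SE from 9 rats; limma adjusted p = 0.359). Cacnb1 had 6.28, 6.54, 6.75, 6.75, 6.75, 6.67, 6.90, 7.17 and 6.80, with the same rats at both ends, and a slope of -0.18 ± 0.059 (limma adjusted p = 0.359). Since these genes tracked each other at r = 0.971 over the 9 rats, they are not independent of each other.

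For Cacnb3 and startle, Pearson's r came to -0.739 with p = 0.0200 by exact permutation, or 0.380 once adjusted over all tested. Spearman's rho came to -0.753, where exact permutation gave p = 0.0235 and 0.415 adjusted. Leaving out rats 1 and 3, whose startle lay most distant from the median, gave r = -0.761, and leaving out rats 8 and 9 gave -0.571, where exact permutation of 7 rats gave p = 0.173. For Cacnb1, r came to -0.742 with p = 0.0196 by exact permutation (0.380 adjusted), and rho to -0.787 with p = 0.0153 (0.379 adjusted). In the same subsets its r was -0.876 and -0.579.

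Of 47 tested cell type markers, 7 had an unadjusted limma p under 0.05 on startle (14.9%, against 13.2% of all tested probe sets). Of the 3 tested markers of excitatory cortical neurons, Cux2 and Slc17a7 had negative slopes with an unadjusted limma p under 0.05, at -0.15 ± 0.040 and -0.27 ± 0.085, the direction of Cacnb1 and Cacnb3. The summed log2 level of the 3 was 30.3 and 29.9 in rats 8 and 9 and 27.7 to 31.1 in the other 7. Past the same threshold were Gad2 of 6 interneuron markers at -0.65 ± 0.228, and Gfap at -0.23 ± 0.091 and Slc1a3 at 0.18 ± 0.067 of 6 astrocyte markers. So were Slco1a4 of 3 endothelial markers at 0.25 ± 0.060 and Acta1 of 2 muscle markers at 0.25 ± 0.097. None of the 6 general neuron markers was. The limma adjusted p was 0.359 for these markers, Gfap at 0.362, and their part in the channel slopes was not tested.

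Cacna1d had a slope of -0.17 ± 0.066 on startle (limma adjusted p = 0.362). Its r came to -0.671 with p = 0.00853 by exact permutation (0.380 adjusted), and its rho to -0.661 with p = 0.0607. Without rats 1 and 3 its r was -0.0043, so the relation rests on those rats, of which rat 3 had the highest startle value and the low Cacna1d value. Without rats 8 and 9 it was -0.709. It also correlated with the mean of the probe sets below the filter, at r = -0.704, and at -0.714 without rats 8 and 9. The Cacna1d probe sets below the filter had r = -0.725 and -0.719 with the tested one over the 9 rats. Their r with that mean was 0.822 and 0.950. The lower Cacnb2 probe set had a slope of 0.11 ± 0.042 (limma adjusted p = 0.362), with r = 0.719 (p = 0.0312 by exact permutation, 0.380 adjusted) and rho = 0.600 (p = 0.0968). Its r was 0.564 without rats 1 and 3 and 0.772 without rats 8 and 9, and the higher Cacnb2 probe set had a slope of -0.034. Scn9a had a slope of 0.10 ± 0.052 (limma adjusted p = 0.398), with r = 0.606 (p = 0.0851 by exact permutation) and rho = 0.567 (p = 0.121). Its r was 0.102 without rats 1 and 3 and 0.734 without rats 8 and 9. Cacna1b, well above the filter, had a slope of 0.12 ± 0.062 (limma adjusted p = 0.402), with r = 0.585 (p = 0.0923 by exact permutation) and rho = 0.576 (p = 0.112). Its r was 0.817 without rats 1 and 3 and 0.20 without rats 8 and 9.

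Beside these values, the mean of the probe sets below the filter, which Scn9a and the lower Cacnb2 probe set tracked and Cacna1d ran against, itself had r = 0.575 with startle (p = 0.107 by exact permutation, 0.429 adjusted over the 4 behaviours) and rho = 0.533 (p = 0.148). Its r was -0.054 without rats 1 and 3 and 0.787 without rats 8 and 9. Its part in these slopes was not tested. The other slopes on startle ran from -0.39 for Scn3a to 0.16 for Scn3b, and the next largest was that of Cacna1h at -0.29 ± 0.129 (limma adjusted p = 0.378). The count of members at an unadjusted p under 0.05 was 1 without rat 1, and 4 to 6 without any other single rat. It was 5 without rats 8 and 9, and 2 where the model held a term marking them. The share of all tested probe sets in these settings is not given here.

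**Figure D5:**
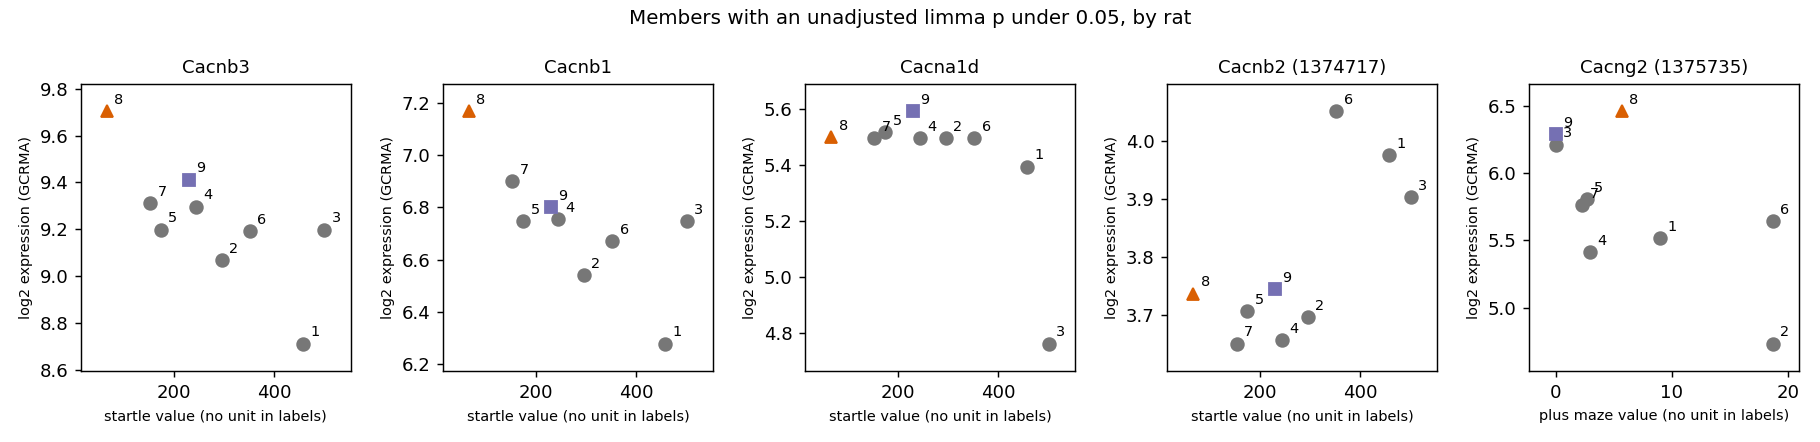
Log2 expression (y axes) against the behavioural value (x axes, no unit in the labels) for the 5 channel probe sets with an unadjusted limma p under 0.05, with rats numbered and rats 8 (triangle) and 9 (square) marked. Cacna1d lies between 5.40 and 5.59 in every rat but rat 3, at 4.76, and Cacnb1 and Cacnb3 are lowest in rat 1 and highest in rat 8.

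For the plus maze, the second Cacng2 probe set had a slope of -0.35 ± 0.134 (SE from 9 rats; limma adjusted p = 0.999). Its r came to -0.658 with p = 0.0587 by exact permutation, and its rho to -0.605 with p = 0.0912. Its r was -0.364 without rats 2 and 6, which shared the highest value of 18.7, and -0.686 without rats 8 and 9. The first Cacng2 probe set had a slope of -0.14 ± 0.136 (limma adjusted p = 0.999). Cacna1c had 0.059 ± 0.032 (limma adjusted p = 0.999), with r = 0.710 (p = 0.0311 by exact permutation, 0.999 adjusted) and rho = 0.565 (p = 0.118). Its r was 0.166 without rats 2 and 6 and 0.777 without rats 8 and 9. The slope of Cacna1c was 0.077 without rat 2 alone and 0.034 without rat 6 alone. Cacna2d1 had a slope of 0.22 ± 0.141 and Cacnb1 -0.10 ± 0.077, both with a limma adjusted p of 0.999. The count of members at an unadjusted p under 0.05 was 0 without rat 3, 0 without rat 9 and 1 without any other single rat. Shares of all tested probe sets without those rats are not given here. Of the 47 cell type markers 2 had an unadjusted p under 0.05 (4.26%, against 2.99% of all tested), Aqp4 of 6 for astrocytes and Col1a2 of 4 for meninges and fibroblasts, at 0.20 ± 0.071 and 0.27 ± 0.088, and their part was not tested.

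For locomotion, Cacna1h had the smallest unadjusted p, with a slope of -0.23 ± 0.142 and r = -0.472 (p = 0.202 by exact permutation). Its rho was -0.400 (p = 0.291 by exact permutation), and its r was -0.430 without rats 1 and 3 and -0.577 without rats 8 and 9. Slopes were 0.10 ± 0.080 for Cacna1d, 0.30 ± 0.241 for Scn3a and -0.069 ± 0.071 for Cacna1b, all with a limma adjusted p of 1.00. The slope of Cacna1d was -0.032 without rat 3. The count of members at an unadjusted p under 0.05 rose to 3 when rat 1 was left out, 1 for rat 3 and 2 for rat 8. Without those rats the share of all tested probe sets is not given here, so the rise is not read as particular to channels.

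For sugar feeding, Cacna1a had the smallest unadjusted p, with a slope of -0.065 ± 0.042 and r = -0.551 (p = 0.134 by exact permutation). Its rho was -0.233 (p = 0.552 by exact permutation), and its r was -0.237 without rats 4 and 8 and -0.842 without rats 8 and 9. Its slope was 0.038 when rat 4, highest in sugar feeding, was left out. Slopes were -0.091 ± 0.069 for Cacna1b, 0.064 ± 0.062 for Cacna1g and 0.13 ± 0.137 for the first Cacng2 probe set, all with a limma adjusted p of 1.00. The count of members at an unadjusted p under 0.05 was 3 without rat 4 and 1 without rat 8. No share of all tested probe sets is given here for those subsets, so these counts are not read as particular to channels. Of the 47 cell type markers 4 had an unadjusted p under 0.05 (8.51%, against 1.40% of all tested), all with positive slopes, of 0.14 to 0.20. They were Nefm of 6 for neurons, Mag and Mobp of 5 for oligodendrocytes and Ppp1r1b of 2 for striatum, and their part was not tested.

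By subfamily, no direction held for all tested probe sets of the pore subunits. On startle 2 of 6 calcium alpha1 probe sets had a positive slope and 4 a negative one, with a median of -0.069, and sodium alpha probe sets were 2 and 2. Calcium beta probe sets had 1 positive and 3 negative slopes, gamma 1 and 2, sodium beta 1 and 1, and both alpha2delta slopes were positive, at 0.075 and 0.079. Over all 21 the median slope was -0.031 for startle, 0.0017 for locomotion, -0.013 for the plus maze and 0.0052 for sugar feeding, beside 0.021, -0.010, 0.011 and -0.0030 for all tested probe sets.

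Partners of the channels were described from 5 lists, with limma giving none of their tested genes past 0.05 after adjustment for any behaviour. Without adjustment limma had 3 of 37 past 0.05 on startle (8.11%, against 13.2% of all tested), 1 on locomotion (2.70%, against 1.96%) and 0 on the others. Of 11 tested partners of sodium channels, 1 had an unadjusted p under 0.05 on startle, Nedd4, a ubiquitin ligase, at -0.55 ± 0.211 (limma adjusted p = 0.359). Another had one on locomotion, Sptbn4, the spectrin of axon initial segments, at -0.13 ± 0.051. Of 12 proteins of release sites, 1 had one on startle, Erc1, an active zone scaffold, at 0.058 ± 0.025 (limma adjusted p = 0.373). Its r with startle was 0.933, with an unadjusted p of 0.000132 by exact permutation. After adjustment 0 of all 9520 probe sets passed 0.05 in that test. Of 3 calcium sensors and anchors, 1 had one on startle, Cabp1, a calcium-binding protein, at -0.18 ± 0.074. The 8 genes of calcium release and extrusion and the 3 leak channel and relative genes had 0 for each behaviour.

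The release-site proteins were also described in rats 8 and 9, where 6 of 12 lay above the other 7 (against 9.33% of all tested probe sets) and 0 below. Rimbp2, which links calcium channels to the release machinery, averaged 1.67 log2 units higher there. Of the sodium channel partners 2 of 11 lay above and 2 below, and Nedd4 averaged 1.76 higher. Among the genes of calcium release and extrusion 2 of 8 lay above and 3 below (against 9.33% and 17.6% of all tested). Ryr2, a ryanodine receptor that lets calcium out of internal stores, averaged 2.33 higher, and Atp2b1, a plasma membrane calcium pump, 0.91 higher.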

How the data were processed

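Each array gave 1 log2 expression value per probe set, computed by the authors with GCRMA; the submitters' processing notes name R 2.6.2. In GCRMA background is removed using the probes' sequence, which leaves unexpressed probe sets at a low level shared within an array. No source used here gives its settings. Of 15923 probe sets 57 controls were left out, and the 9520 at or above the 40% point of the mean were tested. Names came from the platform annotation, where no probe set naming a channel listed several genes. All 36 genes matched RefSeq by gene ID. The slope per SD of each behaviour over the 9 rats was estimated in R 4.3.3 using limma 3.58.1 (lmFit, eBayes, 7 residual degrees of freedom, Benjamini-Hochberg over 9520). For r and rho, two-sided p-values came from all 362880 orders of 9 rats, or 5040 for 7, with numpy 2.4.6 and pandas 2.3.3 in Python 3.11.15. Figures used matplotlib 3.10.9. The limma step was tested on simulated data.

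Values in all rats are given for members of smallest limma p (per behaviour, 2 of each sign), the 3 of largest SD, and the 3 with the largest difference in each direction in rats 8 and 9. Other members are given by range, or in full where short. The members, though found by symbol alone, and the lists were chosen with earlier results of these data known. Alternatives were no filter, a 70% filter, renormalization, an intensity trend with robust moderation, ranks, a term for rats 8 and 9, leaving these out, array weights, a single probe set for each gene, and omitting the 2 farthest rats or each rat. The number of arrays limits the precision.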

Additional observations from a re-analysis of the deposited data

Results flagged for a closer look

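Among the 47 channel probe sets, 7 had a single rat far from the other 8. The measure is the gap from the extreme rat to its nearest neighbour as a share of the whole range, set against the bound of Dixon's test for 9 rats. Chance gives about 1 in 20 groups of independent normal values, and the probe sets share their arrays, so these are not independent. The share among all probe sets of the array was not counted, so the 7 are not read as an excess among channels. The largest was 0.865 for Cacng8, at 2.06 in rat 7 with the next value at 1.64, all below the filter. Cacna1d followed with 0.762 for its low value of 4.76 in rat 3. The Cacna1b probe set above the filter had 0.672 for its low value of 6.99 in rat 8, and Cacna1g 0.654 for its high value of 5.08 in the same rat. Cacna1a had 0.544 for its low value of 3.44 in rat 4, and Cacna2d1 0.529 for its low value of 6.75 in rat 7. Cacna1e, below the filter, had 0.508 for its value of 2.41 in rat 3, where the mean of the other probe sets below the filter was also highest.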

How the results depend on the processing

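No member passed an adjusted p of 0.05 in limma for any behaviour under the alternatives run. The number of members at an unadjusted p under 0.05 moved as follows. Shares over all probe sets under each alternative are not given here, so the moves are not read as particular to channels. For startle, 4 of 21 became 7 of 47 with no filter, 1 of 9 with the 70% filter, 2 with a term for rats 8 and 9, and 1 to 6 when each rat was left out. It became 5 with renormalization, 5 with array weights, 5 without rats 8 and 9, and 3 with ranks. For locomotion, 0 became 2 without rats 8 and 9, 4 without the 2 farthest rats, and 0 to 3 when each rat was left out. For the plus maze, 1 became 2 of 47 with no filter, 0 of 9 with the 70% filter, 4 with array weights, 0 of 19 with 1 probe set per gene, 0 without the 2 farthest rats, and 0 to 1 when each rat was left out. For sugar feeding, 0 became 1 without rats 8 and 9, 1 without the 2 farthest rats, and 0 to 3 when each rat was left out. Of 291 values of the 16 named slopes under these alternatives, 286 kept their sign. The slope of Cacna1b on locomotion was 0.0089 without rats 8 and 9 and -0.20 to 0.0066 when each rat was left out. That of the first Cacng2 probe set on sugar feeding was -0.20 without the 2 farthest rats. Leaving out each rat gave -0.032 to 0.22 for Cacna1d on locomotion and -0.096 to 0.038 for Cacna1a on sugar feeding. The cause was not tested. The probe sets below the filter lie near the arrays' background, where differences between rats could not be read. No paired analysis was possible because the rats form 1 group.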

Other observations

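The relation of the first Cacng2 probe set, Cacnb1 and Cacnb3 with locomotion took opposite signs in subsets of the rats, with none past the threshold over all 9. The first Cacng2 probe set had r = -0.288 (exact permutation p = 0.444), 0.830 without rats 1 and 3 and -0.613 without rats 8 and 9. Cacnb1 had r = -0.280 (exact permutation p = 0.465), 0.503 and -0.835, and Cacnb3 r = -0.222 (exact permutation p = 0.569), 0.669 and -0.823 in the same subsets. The higher Cacnb2 probe set kept 1 sign, at -0.296, -0.293 and -0.210. Rat 1 had the highest locomotion value and the lowest value of all 3 probe sets, and rat 8 the highest of all 3. Scn2a correlated with the mean of the probe sets below the filter at r = -0.705 over the 9 rats and -0.870 without rats 8 and 9, a description with no p. These probe sets were chosen after their values were seen.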
